A study of Mus musculus with 8 samples.

Results

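Transcripts of 41 genes that build, cap, cross-link and service the muscle sarcomere, other than those of actin, myosin, troponin and tropomyosin, were followed in C2C12 cells with and without an siRNA against Fam129b. The 41 genes were taken by name from a deposited table of 21879 genes, and all 41 had a row. In all, 18 of the 41 reached a mean of 1 FPKM (fragments per kilobase of gene, scaled to the library total) over the 8 libraries and were tested; 23 did not, and 2 of these, Mybpc1 and Myot, were listed at 0 in every library. Tmod1 was the lowest gene inside that limit, at a mean of 1.12 FPKM, and Mybph the highest outside it, at 0.915 FPKM.

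C2C12 is a mouse myoblast line whose cells leave the cell cycle and fuse into myotubes when serum is lowered. Libraries of 2 groups were compared, 4 transfected with siNC, taken as the control, and 4 with siFAM129B, by lipid transfection of this 1 line, and all 8 carry the label of muscle differentiation. Cells were grown in 10% fetal bovine serum and differentiated in 2% horse serum, per the labels' protocols; the sources used here give neither the time in differentiation medium nor how many siRNAs were used. Nothing in the labels shows that the samples within a group were grown as separate cultures, and p-values therefore cover only the spread among these samples, which may be technical. A C2C12 culture can hold myoblasts and myotubes at once, and in RNA from whole cultures fewer myotubes and less RNA per myotube cannot be told apart.

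The sarcomere is the contractile unit of striated muscle, in which actin filaments anchored at the Z-disc slide along myosin filaments joined at the M-band. Titin runs from Z-disc to M-band as a molecular spring, nebulin lies along the thin filament, and alpha-actinin, filamin C and PDZ-LIM proteins cross-link the Z-disc. Chaperones and kelch or TRIM proteins fold, stabilise and turn over these parts as myofibrils form. Many of these genes are switched on together late in myoblast differentiation by MyoD family and Mef2 transcription factors, while some, such as Tmod3, Pdlim5, Pdlim7, Unc45a and Obsl1, are also used by cells that make no sarcomere.

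Promoter sequence is shown for genes of both kinds, since the myogenic factors bind short DNA motifs. RefSeq promoter windows (GRCm38.p6, an assembly other than that of the expression table) were matched by symbol for 30 of the 41 genes, with 39 windows, and the 250 bases before each annotated start were searched. In each line below, capitals mark every E-box (CANNTG, the core bound by MyoD family proteins, the same on both strands) and every Mef2 site (also the same on both strands); no 2 of the marked motifs overlap.
Klhl41 (chr2:69669870-69670119, + strand): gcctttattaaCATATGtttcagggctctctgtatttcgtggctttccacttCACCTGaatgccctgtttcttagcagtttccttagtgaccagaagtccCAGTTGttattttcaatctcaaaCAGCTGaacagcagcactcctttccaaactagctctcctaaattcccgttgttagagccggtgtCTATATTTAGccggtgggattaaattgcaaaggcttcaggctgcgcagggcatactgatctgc
Ttn (chr2:76982548-76982797, - strand): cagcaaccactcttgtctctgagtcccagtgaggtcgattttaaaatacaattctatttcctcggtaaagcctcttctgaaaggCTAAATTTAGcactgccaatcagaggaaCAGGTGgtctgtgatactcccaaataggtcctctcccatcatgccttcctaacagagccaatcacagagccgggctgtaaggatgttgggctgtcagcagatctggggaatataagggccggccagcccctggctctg
Synpo2l, the first of its 2 starts (chr14:20668355-20668604, - strand): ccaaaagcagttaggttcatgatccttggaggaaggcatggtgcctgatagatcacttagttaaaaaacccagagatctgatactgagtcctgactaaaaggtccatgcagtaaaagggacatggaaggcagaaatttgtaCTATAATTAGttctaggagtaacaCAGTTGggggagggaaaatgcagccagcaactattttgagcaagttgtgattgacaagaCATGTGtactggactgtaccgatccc
Pdlim3 (chr8:45885237-45885486, + strand): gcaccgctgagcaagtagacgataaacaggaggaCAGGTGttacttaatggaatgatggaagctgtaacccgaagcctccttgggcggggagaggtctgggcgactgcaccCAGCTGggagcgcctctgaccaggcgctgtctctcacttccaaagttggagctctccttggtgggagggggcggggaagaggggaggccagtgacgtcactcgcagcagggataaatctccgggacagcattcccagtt
Unc45a (chr7:80340220-80340469, - strand): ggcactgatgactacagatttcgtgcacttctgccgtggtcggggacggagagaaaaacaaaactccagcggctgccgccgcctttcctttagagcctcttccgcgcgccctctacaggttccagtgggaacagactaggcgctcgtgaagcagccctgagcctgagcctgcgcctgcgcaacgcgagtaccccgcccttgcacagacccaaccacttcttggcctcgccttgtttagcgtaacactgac
The Klhl41 window held 4 E-boxes, 1 of them CAGCTG, and a Mef2 site that begins 63 bases before the start. The Ttn window held 1 E-box and a Mef2 site that begins 166 bases before the start. The Synpo2l window held 2 E-boxes and a Mef2 site at 109 bases, the Pdlim3 window 2 E-boxes and no Mef2 site, and the window of the broadly expressed Unc45a neither motif. Unc45a does not stand for its kind in this: of the other broadly expressed genes with a window, Obsl1 and Pdlim5 held an E-box, CAGCTG in Obsl1, and Pdlim7 held none. A Mef2 site was present in 7 of the 39 windows, from 6 genes (Klhl41, Myom3, Myoz2, Synpo2l, Ttn and Xirp2), and in 2.92% of all 32851 windows of the table. The E-box CAGCTG was present in 10 of the 39 windows and in 13% of all, and any CANNTG, which includes CAGCTG, in 27 of the 39 and in 66.2% of all. CArG boxes, which serum response factor binds, were present in 4 of the 39 windows and in 1.47% of all, and the MCAT element CATTCC, which Tead factors bind, on either strand in 7 of the 39 and in 12.6% of all. A match to these letters is a description of the window and not a site of binding.

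Depth was close to even: the whole reads recovered from the FPKM steps came to between 31466869 and 36031688 per library. Fam129b, the siRNA target, a cytoplasmic Niban family protein, held 154, 163, 179 and 175 FPKM in siNC and 91.6, 87.0, 87.3 and 128 FPKM in siFAM129B. All siFAM129B values lay below all siNC values, at 58.8% of the siNC mean (exact two-sided permutation p = 0.0286, the lowest value possible with 4 against 4). siFAM129B library 4 stood apart from the rest: its value lay below those of all 7 other libraries for 37.7% of the 11025 tested genes and above them for 39.9%. For each tested sarcomere assembly gene that library 4 set apart, the log2 difference is therefore given with and without it. Myoblast markers (5 of 5 tested) summed to between 280.0 and 403 FPKM in siNC and 286 and 435 FPKM in siFAM129B. Proliferation markers (5 of 5 tested) summed to between 427 and 474 FPKM in siNC and 401 and 445 FPKM in siFAM129B. Markers of differentiated muscle (6 of the 8 in the table tested, Ckm at most 0.984 FPKM) summed to between 25.1 and 64.7 FPKM in siNC. In siFAM129B they summed to between 20.1 and 36.8 FPKM. The lists hold different genes, and Des, at a mean of 227 FPKM, is the largest part of the myoblast sum. Sums of different lists therefore do not compare cell states. Of markers of other cell types, adipocyte genes (0 of 4 tested, Cidec at 0) summed to at most 1.27 FPKM in any library. Osteoblast (1 of 4 tested, Runx2, with Ibsp at 0) and cardiac genes (2 of 5 tested, Tnnt2 and Nppb) summed to 9.33 to 19.8 and 34.2 to 63.5 FPKM over the 8 libraries. Smooth muscle genes (2 of 4 tested, Acta2 and Smtn, with Myh11 at most 0.0308 FPKM) summed to 182 to 250.0 FPKM.

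Levels of the sarcomere assembly genes ran from 0 to 105 FPKM, and the abundant ones encode Z-disc proteins or are broadly expressed. The 8 genes at a mean of at least 10 FPKM were Pdlim7, Flnc, Pdlim3, Actn3, Pdlim5, Tmod3, Unc45a and Obsl1. At the other end, several Z-disc genes and Mybpc2, of the thick filament, were near 0. Tcap, Csrp3, Myoz1, Myoz2, Myoz3, Actn2, Ankrd2, Smpx and Mybpc2 never exceeded 0.347 FPKM, the value of Csrp3 in siFAM129B library 2. Other Z-disc genes not counted as broadly expressed ran higher, such as Actn3 at a mean of 37.0, Synpo2l at 5.85 and Ldb3 at 4.70 FPKM. The plot of levels by library shows this order and, for most genes, points of both groups interleaved.

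**Figure D1:**
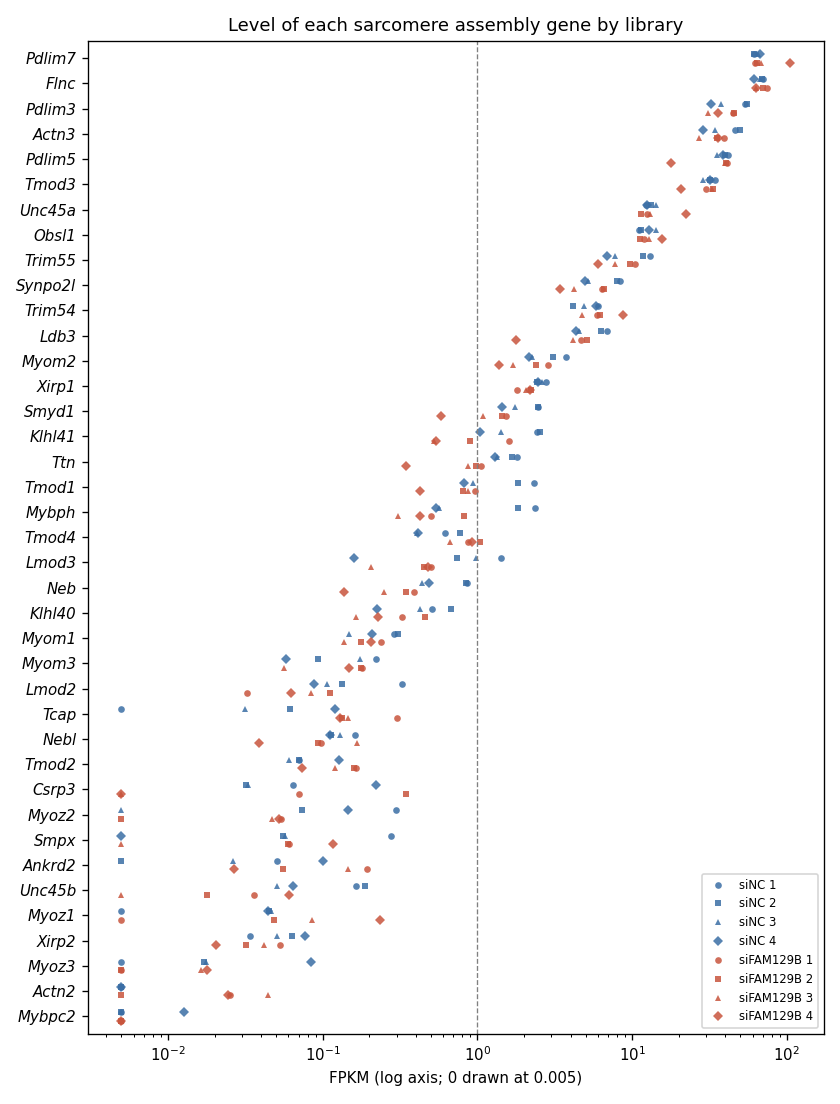
FPKM of the 39 sarcomere assembly genes above 0 in at least 1 library, 1 point per library, with the 2 groups offset and the 4 symbols standing for libraries 1 to 4. The dashed line is the limit of 1 FPKM; Pdlim7 and Flnc are highest, and siFAM129B library 4 (red diamonds) lies apart for Pdlim7, Pdlim5, Unc45a and Ldb3.

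No sarcomere assembly gene passed an adjusted p of 0.05 between siFAM129B and siNC in limma, and neither did any other of the 11025 genes tested (0.0% of all). That includes Fam129b, the siRNA target, whose groups did not overlap (unadjusted p = 0.000198 and adjusted p = 0.784 in limma). Not passing therefore does not show that a gene is unchanged. Of all genes, 274 (2.49%) stood at an unadjusted p under 0.05. A voom fit of limma to the recovered reads called 0 genes as well, with 254 at an unadjusted p under 0.05. Of the 18 tested genes, 13 had a log2 difference below 0, against 49.4% of all genes tested, and their median difference was -0.21 against 0.003 for all genes. Leaving out siNC library 4 gave a median of -0.31, and leaving out siFAM129B library 4 gave -0.15. At an unadjusted p under 0.05 in limma stood 4 of the 18, Ttn, Smyd1, Klhl41 and Xirp1, all lower with siFAM129B, against 0.707% of all genes in that direction. Ttn alone stood there when siNC library 1 or 2 was left out, against 0.454% and 0.526% of all genes. Without siFAM129B library 3 the count was 2 against 2.83% of all, and without siFAM129B library 2 or 4 it was 3, against 0.526% and 1.71%. With array weights it was 5, against 4.86% of all genes. Values of the 4 libraries of each group did not overlap for 2 of the 18, Ttn and Xirp1, both lower with siFAM129B, against 1.46% of all genes. The smallest adjusted p among the 18 was 0.784. Log2 differences were taken on log2(FPKM + 1), so those of genes near 1 FPKM are understated. Values below are given in order for libraries 1 to 4 of a group.

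Titin, the giant spring of the sarcomere, separated the groups. Ttn held 1.80, 1.67, 1.34 and 1.30 FPKM in siNC and 1.06, 0.985, 0.866 and 0.347 FPKM in siFAM129B. Every siFAM129B library lay below every siNC library, and library 4 lay lowest. The mean was 1.53 ± 0.246 FPKM (SD, n = 4) in siNC and 0.813 ± 0.321 FPKM (SD, n = 4) in siFAM129B, so 53.2% of the siNC mean remained, or 63.4% over libraries 1 to 3. The log2 difference was -0.49 ± 0.15 (SE), and -0.36 ± 0.11 (SE) without library 4. Because the gene is so long, this low level rests on many reads, from 1123 to 6135 per library. Nebulin (Neb), the thin filament ruler, is named here after its values were seen, since it fell below the limit of 1 FPKM. Neb held 0.853, 0.839, 0.437 and 0.485 FPKM in siNC and 0.390, 0.343, 0.250 and 0.137 FPKM in siFAM129B. These groups also did not overlap, and siFAM129B library 4 was the lowest. The mean of siFAM129B was 42.9% of that of siNC, or 50.2% over libraries 1 to 3. In the fit with no filter its log2 difference was -0.36 ± 0.10 (SE), with an adjusted p of 0.83. Nebl, encoding the shorter nebulette, lay between 0.0385 and 0.167 FPKM with the groups overlapping.

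Among M-band and thick filament proteins, Myom2 (myomesin 2, an M-band cross-linker) reached the limit. Myom2 held 3.75, 3.08, 2.25 and 2.16 FPKM in siNC and 2.84, 2.38, 1.69 and 1.38 FPKM in siFAM129B. Libraries 1 and 2 of each group were the higher ones, and the groups overlapped. The log2 difference of Myom2 was -0.31 ± 0.19 (SE), and -0.20 ± 0.17 (SE) without library 4 of siFAM129B. Obsl1, an obscurin-like cytoskeletal linker that many tissues make, held 11.0, 11.3, 14.3 and 12.8 FPKM in siNC and 11.9, 11.2, 12.8 and 15.7 FPKM in siFAM129B. It was highest in siFAM129B library 4, and the other values overlapped. Its log2 difference was 0.05 ± 0.13 (SE), and -0.04 ± 0.09 (SE) without that library. Mybph, a myosin-binding protein H gene, was just under the limit. Mybph held 2.36, 1.82, 0.566 and 0.540 FPKM in siNC and 0.498, 0.814, 0.307 and 0.422 FPKM in siFAM129B. siNC libraries 1 and 2 stood above the other 6. Myom1 and Myom3 lay between 0.0558 and 0.306 FPKM, and Mybpc2 was above 0 in siNC library 4 alone, at 0.0126 FPKM.

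At the Z-disc, the values of both groups overlapped for the abundant structural genes. Flnc, the muscle filamin that cross-links actin at the Z-disc and the membrane, was among the steadiest. Flnc held 70.002, 69.5, 66.9 and 60.9 FPKM in siNC and 74.5, 70.3, 63.1 and 62.7 FPKM in siFAM129B. The groups overlapped over a narrow range, with a log2 difference of 0.02 ± 0.09 (SE). Its relative Flna, the widely expressed filamin A, averaged 405 FPKM over the 8 libraries, above Flnc on this per-length scale. Actn3, alpha-actinin 3, the Z-disc cross-linker of fast fibres, is described next. Actn3 held 46.4, 49.8, 34.3 and 28.8 FPKM in siNC and 39.1, 35.1, 26.8 and 35.9 FPKM in siFAM129B. Libraries 1 and 2 of siNC were highest, and siFAM129B library 3 lowest. Actn3 had a log2 difference of -0.19 ± 0.18 (SE). Actn2, the other sarcomeric alpha-actinin, was listed at 0 in all 4 siNC libraries and in siFAM129B library 2, and reached at most 0.0441 FPKM. The nonmuscle alpha-actinins Actn1 and Actn4 averaged 129.8 and 163 FPKM, above the 37.0 FPKM of Actn3.

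PDZ-LIM proteins bind alpha-actinin and bring signalling proteins to the Z-disc, and 4 of the 41 genes that encode one were tested. Pdlim3 held 53.3, 55.4, 37.5 and 32.2 FPKM in siNC and 45.2, 45.3, 30.7 and 35.7 FPKM in siFAM129B. For Pdlim3, libraries 1 and 2 stood above 3 and 4 in each group, and the groups overlapped. Its log2 difference was -0.16 ± 0.20 (SE). Pdlim5 held 41.6, 39.9, 35.5 and 38.5 FPKM in siNC and 40.8, 40.4, 39.9 and 17.8 FPKM in siFAM129B. Pdlim5, also called ENH, thus lay within a narrow band in 7 libraries, with siFAM129B library 4 far below. The log2 difference of Pdlim5 was -0.23 ± 0.24 (SE) with all libraries, and 0.06 ± 0.06 (SE) without library 4. Pdlim7 held 61.1, 61.3, 65.5 and 67.2 FPKM in siNC and 62.3, 64.0, 67.6 and 105 FPKM in siFAM129B. For Pdlim7, also called enigma, library 4 was the one value far above the rest. Its log2 difference was 0.19 ± 0.16 (SE), and 0.02 ± 0.05 (SE) without library 4. Ldb3, encoding ZASP or cypher, which stabilises the Z-disc under load, varied more. Ldb3 held 6.84, 6.25, 4.51 and 4.30 FPKM in siNC and 4.67, 5.13, 4.14 and 1.78 FPKM in siFAM129B. siNC libraries 1 and 2 were highest and siFAM129B library 4 lowest. The log2 difference of Ldb3 was -0.43 ± 0.25 (SE), and -0.18 ± 0.15 (SE) without library 4.

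Xirp1, an actin-binding protein of myotendinous junctions and intercalated discs, was the second tested sarcomere assembly gene whose groups did not overlap. Xirp1 held 2.75, 2.42, 2.62 and 2.48 FPKM in siNC and 1.79, 2.23, 2.06 and 2.18 FPKM in siFAM129B. Its siNC libraries lay within a narrow range above every siFAM129B library, and library 4 did not stand apart. Xirp1 averaged 2.57 ± 0.151 FPKM (SD, n = 4) in siNC and 2.07 ± 0.195 FPKM (SD, n = 4) in siFAM129B, or 80.5% of siNC. The log2 difference was -0.22 ± 0.09 (SE), and -0.24 ± 0.09 (SE) without library 4. Synpo2l encodes a Z-disc actin-binding protein. Synpo2l held 8.32, 7.95, 5.16 and 4.93 FPKM in siNC and 6.35, 6.53, 4.19 and 3.40 FPKM in siFAM129B. Libraries 1 and 2 were higher than 3 and 4 in each group. Synpo2l had a log2 difference of -0.32 ± 0.22 (SE), and of -0.17 ± 0.20 (SE) without siFAM129B library 4. The paralog Xirp2 lay between 0.0205 and 0.0767 FPKM. Tcap, which ties titin to the Z-disc, is named after its values were seen: all siFAM129B values exceeded all siNC values, but the smallest whole read numbers that fit were 4 to 9 and 0 to 4, so its size is poorly fixed. No log2 difference of a Z-disc gene below the limit passed in the fit with no filter (adjusted p of 0.83 or more in limma).

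Tropomodulins and leiomodins cap or lengthen the pointed ends of actin filaments. Tmod3, the broadly expressed tropomodulin, was the most abundant of them. Tmod3 held 34.1, 31.9, 28.8 and 31.7 FPKM in siNC and 30.0, 33.2, 32.8 and 20.8 FPKM in siFAM129B. The value of siFAM129B library 4 lay below the range of the other 7. Its log2 difference was -0.13 ± 0.15 (SE), and 0.02 ± 0.07 (SE) without library 4. Tmod1, the form of striated muscle and red cells, showed the widest spread within siNC, relative to its mean, of the 18 tested genes. Tmod1 held 2.32, 1.84, 0.936 and 0.818 FPKM in siNC and 0.964, 0.807, 0.866 and 0.424 FPKM in siFAM129B. siNC libraries 1 and 2 stood above the other 6, whose values overlapped between the groups. Tmod1 averaged 51.8% of siNC, with a log2 difference of -0.45 ± 0.20 (SE), or -0.35 ± 0.21 (SE) without siFAM129B library 4. Tmod4, the skeletal muscle form, pointed the other way below the limit. Tmod4 held 0.613, 0.769, 0.409 and 0.414 FPKM in siNC and 0.867, 1.03, 0.666 and 0.923 FPKM in siFAM129B. Its groups overlapped, with a mean in siFAM129B of 158% of siNC and a log2 difference of 0.27 ± 0.09 (SE) in the fit with no filter (adjusted p = 0.83 in limma). Lmod3, a leiomodin needed for thin filament length, averaged 0.824 ± 0.527 FPKM (SD, n = 4) in siNC and 0.410 ± 0.138 FPKM (SD, n = 4) in siFAM129B. Its siNC values ran from 0.159 to 1.43 FPKM, a range that held all 4 siFAM129B libraries. Lmod2 and Tmod2, the latter mainly neuronal, stayed at or under 0.325 FPKM.

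Of the assembly factors, Klhl41 and Smyd1 had the largest log2 differences. Among all 18 genes Klhl41 had the largest, and Smyd1 and Ttn were level at -0.49. With voom on recovered reads, Klhl41 stood at -1.12, Ttn at -1.02, Tmod1 at -0.87 and Smyd1 at -0.86. Klhl41 encodes a kelch protein that stabilises nebulin and thin filament proteins. Klhl41 held 2.41, 2.53, 1.43 and 1.04 FPKM in siNC and 1.60, 0.894, 0.524 and 0.541 FPKM in siFAM129B. The groups overlapped, since siFAM129B library 1 exceeded siNC libraries 3 and 4. Klhl41 averaged 1.85 ± 0.733 FPKM (SD, n = 4) in siNC and 0.890 ± 0.504 FPKM (SD, n = 4) in siFAM129B, and the log2 difference was -0.59 ± 0.23 (SE). Smyd1, a muscle methyltransferase needed for myofibril assembly, held 2.46, 2.47, 1.75 and 1.44 FPKM in siNC and 1.54, 1.44, 1.08 and 0.585 FPKM in siFAM129B. The 3 highest values were siNC and the 2 lowest siFAM129B libraries 3 and 4. Its mean was 57.2% of siNC, or 66.7% over libraries 1 to 3, with a log2 difference of -0.49 ± 0.18 (SE), or -0.35 ± 0.15 (SE) without library 4. Klhl40, a partner of Lmod3 and nebulin, lay between 0.163 and 0.671 FPKM with overlapping groups.

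Unc45a and Unc45b are myosin chaperones, the first general and the second of striated muscle. Unc45a held 12.2, 13.2, 14.3 and 12.6 FPKM in siNC and 12.4, 11.4, 13.0 and 22.2 FPKM in siFAM129B. Apart from siFAM129B library 4, the Unc45a values of both groups filled the same narrow range. Its log2 difference was 0.12 ± 0.18 (SE) with all libraries and -0.08 ± 0.07 (SE) without library 4. Unc45b held 0.163, 0.188, 0.0506 and 0.0644 FPKM in siNC and 0.0357, 0.0178, 0 and 0.0602 FPKM in siFAM129B. On the per-length scale the general chaperone was thus by far the more abundant. The Unc45b groups overlapped, with a mean in siFAM129B of 24.4% of siNC, or 15.3% over libraries 1 to 3, and a log2 difference of -0.12 ± 0.04 (SE) in the fit with no filter (adjusted p = 0.83 in limma). Trim54 and Trim55, microtubule-associated TRIM proteins of the MuRF family, did not follow each other. Trim54 held 6.01, 4.15, 4.85 and 5.84 FPKM in siNC and 5.91, 6.17, 4.72 and 8.67 FPKM in siFAM129B. For Trim54 siFAM129B library 4 was highest, and the log2 difference of 0.23 ± 0.17 (SE) was 0.09 ± 0.13 (SE) without library 4. Trim55 held 13.1, 11.8, 7.69 and 6.86 FPKM in siNC and 10.4, 9.68, 7.76 and 6.03 FPKM in siFAM129B. Trim55 was highest in siNC libraries 1 and 2, with a log2 difference of -0.18 ± 0.22 (SE). That difference was -0.05 ± 0.21 (SE) without siFAM129B library 4 and -0.04 ± 0.22 (SE) without siNC library 1. Trim63, the family member best known from muscle wasting, stayed at or under 0.0971 FPKM.

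**Figure D2:**
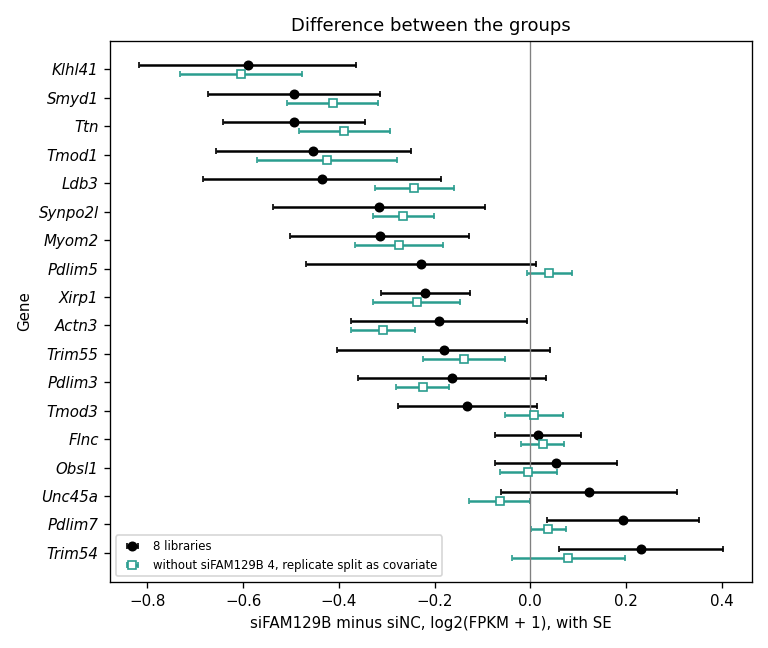
Log2 difference (siFAM129B minus siNC, log2(FPKM + 1)) with its SE from limma for the 18 tested genes, from all 8 libraries (black) and from 7 libraries, siFAM129B 4 left out, with the split of replicates 1 and 2 from 3 and 4 as covariate (green). Klhl41, Smyd1 and Ttn lie furthest below 0 in the first fit, and Pdlim5, Tmod3, Obsl1 and Unc45a change side of 0 between the fits; no difference passed an adjusted p of 0.05 in either.

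Many of these genes also differed by replicate number within each group. Replicates 1 and 2 both stood above 3 and 4 for 13 of the 18 genes in siNC, against 31.7% of all genes tested, and for 10 of the 18 in siFAM129B, against 19.5% of all. In both groups at once this held for 10 of the 18, against 14.1% of all genes: Ttn, Myom2, Flnc, Ldb3, Pdlim3, Pdlim5, Synpo2l, Trim55, Klhl41 and Smyd1. For Klhl41 the mean of libraries 1 and 2 was 2.00 times that of 3 and 4 in siNC and 2.34 times in siFAM129B, where library 2 stood at 0.894 FPKM and library 1 at 1.60 FPKM. For Synpo2l these ratios were 1.61 and 1.70, and for Flnc only 1.09 and 1.15. Obsl1, Pdlim7, Xirp1, Unc45a and Trim54 showed it in neither group; 3 of these 5 are genes that cells without sarcomeres also use, as are Pdlim5 and Tmod3. The labels name no batch that separates the replicate numbers, and the split was known from earlier results of these data, so no test of it is given.

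Most markers of differentiated muscle moved in the same way. Myog, the transcription factor that starts terminal differentiation, held 13.9, 14.3, 7.51 and 4.21 FPKM in siNC and 6.80, 6.77, 2.10 and 2.58 FPKM in siFAM129B. Acta1 held 10.5, 10.4, 4.58 and 3.18 FPKM in siNC and 5.10, 5.19, 2.00 and 2.34 FPKM in siFAM129B. Acta1, the skeletal alpha-actin, was thus also highest in siNC libraries 1 and 2. Myod1, which marks myoblasts, ranged from 26.9 to 41.3 FPKM with the groups overlapping. Replicates 1 and 2 stood above 3 and 4 in all 6 tested markers in siNC and in 4 of the 6 in siFAM129B. All 6 had a log2 difference below 0, with a median of -0.54. Among them Tnnc1 hardly differed, at -0.002 ± 0.20 (SE), with a siFAM129B mean of 99.2% of siNC. The part of these markers in the values of the sarcomere assembly genes was not tested. Fits of replicates 1 and 2 alone and of 3 and 4 alone, with 2 libraries per group, were added after the data were seen. They are therefore descriptive. Within replicates 1 and 2 alone, 10 of the 18 genes stood at an unadjusted p under 0.05 in limma. All 10 were lower with siFAM129B, against 5.05% of all genes in that direction. Within replicates 3 and 4 alone it was 2 of the 18, Ttn and Klhl41, against 0.109% of all. None passed an adjusted p of 0.05 in either (the smallest were 0.129 and 0.83 in limma).

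**Figure D3:**
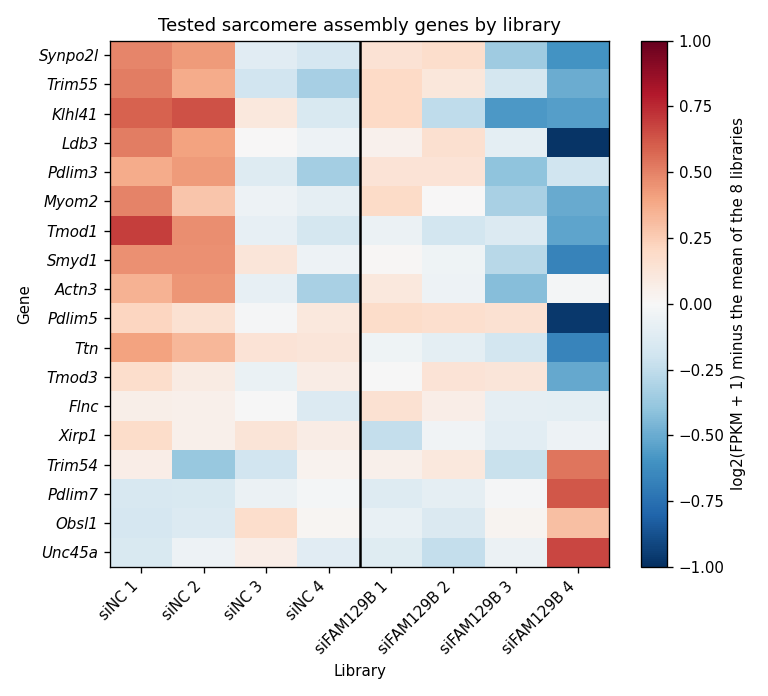
Log2(FPKM + 1) of each tested gene minus its mean over the 8 libraries, 1 column per library and 1 row per gene, with rows ordered by the difference between replicates 1 and 2 and replicates 3 and 4. siNC 1 and 2 are high for most upper rows, siFAM129B 4 is low for Ldb3, Pdlim5 and Ttn, and it is high for Unc45a, Pdlim7 and Trim54.

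siFAM129B library 4 also stood apart for many of these genes, as it did for genes at large. It was the lowest of the 4 siFAM129B libraries for 10 of the 18 genes and the highest for 4, where all genes tested gave 42.1% and 44.3%. It lay below all 7 other libraries for 9 of the 18, against 37.7% of all genes tested. It lay above all of them for 4 (Obsl1, Pdlim7, Unc45a and Trim54), against 39.9% of all. Gene length went with this library: on the log2(FPKM + 1) scale the median of library 4 minus the mean of libraries 1 to 3 was 0.44 in the shortest of 4 equal classes of implied gene length, then 0.15, -0.10 and -0.52 in the next classes. The difference between the groups followed the same order, with medians of 0.12, 0.03, -0.03 and -0.12. Pdlim7 and Trim54, with implied lengths of 1449 and 1534 bp, stood 0.70 and 0.56 higher in library 4. Pdlim5, Myom2 and Ttn, all in the longest class, stood at -1.14, -0.46 and -0.55. This scale understates genes near 1 FPKM. As a ratio of FPKM, library 4 stood at 0.358 of the mean of libraries 1 to 3 for Ttn and at 0.442 for Pdlim5. Obsl1, Xirp1 and Flnc, also in the longest class, stood at 0.37, 0.07 and -0.14. Of the third class, Unc45a, Actn3 and Ldb3 stood at 0.81, 0.11 and -1.02, and Smyd1, Tmod3 and Synpo2l at -0.565, -0.595 and -0.585. Pdlim3, in the shortest class, stood at -0.15, and Trim55, Tmod1 and Klhl41, the tested genes of the second class, at -0.54, -0.40 and -0.35, all below the medians of their classes. The part of length in the differences between the groups was not tested.

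**Figure D4:**
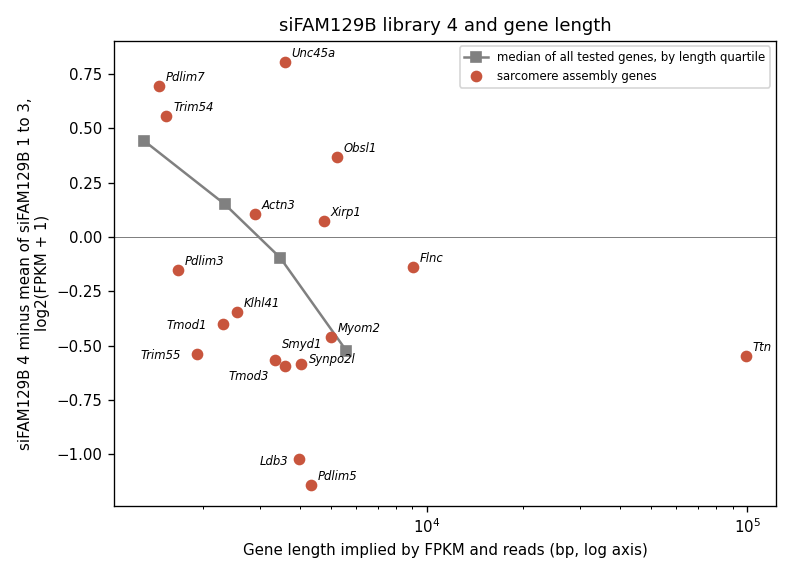
siFAM129B library 4 minus the mean of siFAM129B libraries 1 to 3 on the log2(FPKM + 1) scale (vertical) against the gene length implied by FPKM and recovered reads (horizontal, log axis), with the 18 tested genes as red points. The grey line joins the medians of all tested genes in 4 length classes, which go from 0.44 to -0.52. Genes such as Unc45a, Obsl1 and Xirp1 lie above it, and genes such as Ldb3, Pdlim5 and Trim55 below.

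With the replicate split (1 and 2 against 3 and 4) as a covariate and all 8 libraries kept, 8 of the 18 genes stood at an unadjusted p under 0.05 in limma, all lower with siFAM129B, against 1.27% of all genes in that direction; with the replicate number as a block it was 7 of the 18, against 0.771% of all. When, with the split as covariate, library 4 was also left out, a fit known from earlier results of these data, 10 of the 18 stood there, all lower with siFAM129B, against 5.21% of all genes. These were Klhl41, Actn3, Synpo2l, Xirp1, Smyd1, Myom2, Ttn, Tmod1, Ldb3 and Pdlim3. Klhl41 had -0.60 ± 0.13 (SE), Smyd1 -0.41 ± 0.09 (SE), Ttn -0.39 ± 0.10 (SE), Actn3 -0.31 ± 0.07 (SE) and Pdlim3 -0.22 ± 0.05 (SE) as log2 differences. The smallest adjusted p among them was 0.136 in limma, so again none passed. Of the genes also used outside muscle, Tmod3, Pdlim5, Pdlim7, Unc45a and Obsl1, none was among the 10, and their log2 differences in this fit were 0.01 ± 0.06 (SE), 0.04 ± 0.05 (SE), 0.04 ± 0.04 (SE), -0.06 ± 0.06 (SE) and -0.00 ± 0.06 (SE). The difference between these 5 genes and the rest was not tested.

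The actin, myosin, troponin and tropomyosin genes, with which these proteins assemble, are given for comparison. Of 26 listed, 16 were tested, 12 lay below 0 and 0 passed, with a median log2 difference of -0.29; the most abundant, Tpm4, Tpm1 and Tpm3, averaged 557, 318 and 268 FPKM. Of 14 relatives of the sarcomere assembly genes that serve mostly nonmuscle, smooth muscle or stress roles, 12 were tested. Of these 10 lay above 0 and 2 below, with 0 passing and a median of 0.11. Over all genes tested, 49.4% lay below 0. siFAM129B library 4 was the highest of its group for 7 of the 12 and the lowest for 3, against 44.3% and 42.1% of all genes. The most abundant relatives were Flna at 405, Ankrd1 at 201 and Actn4 at 163 FPKM. Pdlim2, named after its values were seen, had all siFAM129B values above all siNC values, as did 1.9% of all genes. Its log2 difference was 0.32 ± 0.13 (SE). siFAM129B library 4 was the highest for Pdlim2, at 81.5 FPKM. The siFAM129B mean of Pdlim2 was 126% of siNC, or 114% over libraries 1 to 3.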

How the data were processed

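Messenger RNA of 8 C2C12 libraries, 4 siNC and 4 siFAM129B, was sequenced after poly(A) selection, per the labels' protocols. The authors deposited 1 FPKM value per gene and library. The genome build is mm9, per the submitters' processing notes. Not given in the sources used here are the aligner, annotation, counting tool and use of strand. Since FPKM is relative to the library total, a shift in abundant transcripts moves every gene of that library. Columns starting with N and F were matched to siNC and siFAM129B by letter and replicate number in the titles; the descriptions of the siFAM129B samples carry another letter code, so that match rests on the titles alone.

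For 16478 of the 16479 genes above 0, FPKM ratios between libraries matched whole read numbers (tolerance 0.001 reads); the smallest such numbers were taken as reads, are lower bounds, and gave implied gene lengths. No 2 libraries of a group agreed within sampling noise (chi-square per gene of 5.7 or more). The main test was limma 3.58.1 in R 4.3.3, on log2(FPKM + 1) with its trend option, over the 11025 genes that averaged 1 FPKM or more. Benjamini-Hochberg adjustment ran over all of them, with a threshold of 0.05. The test was tried on simulated data with independent noise of equal spread in all libraries. Those data held no library set apart and no replicate split, so they do not show how the test behaves with either. Fam129b was also tested by an exact permutation test over 70 assignments. The alternatives were other pseudocounts and filters, median ratio scaling, quantile normalization, array weights, a replicate block, a replicate split as covariate, each library left out and voom on recovered reads; fits of replicates 1 and 2 alone and 3 and 4 alone were added after the data were seen.

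The members, lists and alternatives were chosen with earlier results of these data known. All members are named, with values where the mean reached 1 FPKM and with values, means, read numbers or ranges otherwise. Beyond them the rule named Fam129b, Myog, Myod1, Acta1 and up to 3 of the most abundant genes of each comparison list. Other genes named, such as Actn1, Trim63, Pdlim2 and single markers, were chosen after their values were seen. Promoter sequences are from RefSeq (GRCm38.p6).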

Additional observations from a re-analysis of the deposited data

Results flagged for a closer look

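In 4 cases the value of 1 library lay far from the other 3 of its group, by Dixon's criterion, among 38 groups of 4 examined; chance flags about 1 group in 20. All 4 were siFAM129B library 4. Pdlim5, the PDZ-LIM protein of the Z-disc, stood at 17.8 FPKM there while siFAM129B 1 to 3 held 39.9 to 40.8 FPKM. Pdlim7 stood at 105 FPKM against 62.3 to 67.6 FPKM. Unc45a, the general myosin chaperone, stood at 22.2 FPKM against 11.4 to 13.0 FPKM. Fam129b, the siRNA target, stood at 128 FPKM against 87.0 to 91.6 FPKM.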

How the results depend on the processing

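No sarcomere assembly gene passed an adjusted p of 0.05 in any of the 21 alternative fits (the smallest was 0.129, for Actn3 in replicates 1 and 2 alone). Over all genes, quantile normalization led limma to call 1 gene, array weights 2, the replicate split as covariate with siFAM129B library 4 left out 5, and replicates 1 and 2 on their own, an addition made after seeing the data, 10; leaving out single libraries gave 0 to 1. For 13 of the 18 tested genes the log2 difference kept 1 sign in every fit that tested them, while Flnc, Obsl1, Pdlim5, Tmod3 and Unc45a had the other sign in 3 to 5 fits. Ttn ranged from -1.02 with voom on recovered reads to -0.36, Klhl41 from -1.12 to -0.48 and Ldb3 from -0.56 to -0.18, the last without siFAM129B library 4. With a filter of 5 FPKM 11 of the 41 genes were tested, 6 of them below 0. Same-numbered libraries of the 2 groups deviated together by correlations of 0.531, 0.25, 0.0449 and 0.124. siNC 1 with siFAM129B 2 gave 0.473, and siNC 2 with siFAM129B 1 gave 0.363. siNC 3 with siFAM129B 4 gave 0.343, and siNC 4 with siFAM129B 3 gave 0.393. The remaining combinations lay between -0.458 and -0.0744. The labels do not say that equal numbers mark a shared culture, and the numbers were not taken as pairs. The replicate block called 0 genes, and under it Fam129b had a log2 difference of -0.78 with an exact permutation p of 0.125, the smallest that 4 pairs allow. With single libraries left out the difference of Fam129b ranged from -0.91 to -0.73, with an exact permutation p of 0.0571 where a siNC library was missing. Genes such as Actn2, Mybpc2 and Tcap rest on a few reads per library, and recovered read numbers are lower bounds, so small differences in them were not detectable at this depth.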
